A study of Mus musculus with 74 samples.

Results

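Ribosome footprints were set against messenger RNA, gene by gene, in quadriceps of 4 control animals of a study of the transcriptional repressor BCL6 in mouse muscle. The comparison uses 8 of the 74 samples of the series: a footprint library and an mRNA library from each animal; the animals are called A, B, C and D here. All 4 animals were C57BL/6, were labelled AEC-Esr Cre (+); RiboTag (+), and had been treated with TMX. Values from 8 further libraries are given beside them, from 4 TMX-treated knockout animals labelled AEC-Esr Cre (+):Bcl6 fl/fl; RiboTag (+). The labels do not spell out AEC, name the promoter behind the Cre or give an age. RiboTag animals carry an allele of the ribosomal protein gene Rpl22 that gains an HA tag where Cre is active, so that HA beads pull down ribosomes of those cells. Lysates were digested with T1 RNase, ribosomes were captured on HA beads and the protected fragments became the footprint library. The mRNA libraries are labelled as poly(A) RNA, and the HA antibody is also listed for them, so the labels do not settle whether that RNA came from captured ribosomes or from the whole lysate.

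A ribosome covers a short stretch of the mRNA it is translating, and nuclease digestion leaves that stretch intact. The number of footprints of a gene relative to its mRNA is read in the field as ribosome loading, or translation efficiency. It is a relative measure: each library is scaled to its own total, so a log2 ratio of 0 means that a gene takes the same share of footprints as of mRNA, not that it is translated at any given rate. In muscle, a few contractile and metabolic mRNAs make up much of the message pool, and the mRNAs of the translation machinery itself are known to be regulated as a group.

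The footprint libraries held 3731705 to 4370468 counts in genes and the mRNA libraries 6499561 to 10590482, with animal D at the lower end of the mRNA range; the mRNA levels of many abundant muscle genes stand highest in that library. Counts in genes were 13.4% to 22.3% of all tags for footprints and 47.3% to 52.5% for mRNA. Across genes, libraries of 1 type had rank correlations of at least 0.971, while a footprint and an mRNA library had 0.814 to 0.835. The samples carry the markers of the labelled tissue: 17 genes of fast sarcomeres held 3.94% to 4.49% of footprint counts and 2.68% to 3.46% of mRNA counts.

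Of 14164 genes tested, 5076 (35.8%) were higher and 5369 (37.9%) were lower in footprints than in mRNA at an adjusted p below 0.05 (edgeR quasi-likelihood test with the animal as a block). At least 2-fold differences were called for 2483 genes (17.5%) in the higher and 2959 (20.9%) in the lower direction. From the 25th to the 75th percentile, genes lay between log2 ratios of -0.81 and 0.69, and the median was -0.03. The spread of the ratio across genes (SD 1.75) was well above the median spread of 1 gene across the 4 animals (SD 0.27). Since nearly 3 in 4 genes were called, a call alone says little about a gene. The 4 footprint values lay all above the 4 mRNA values in 31.3% of genes and all below them in 33.9%, so a lack of overlap is likewise common. Counts of list members are to be read against the shares of 35.8% higher and 37.9% lower. Of 36 lists, 17 had a median that turned sign relative to all genes under at least 1 alternative; among those described, they are glycolysis, oxidative phosphorylation, initiation and elongation factors, mitochondrial ribosomal proteins, iron genes, the fast and the giant sarcomere lists, calcium handling, chaperones, growth signalling, immediate early genes, myogenic genes, fibroblast, tendon and satellite cell genes, and for these no direction of the median is claimed.

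**Figure D1:**
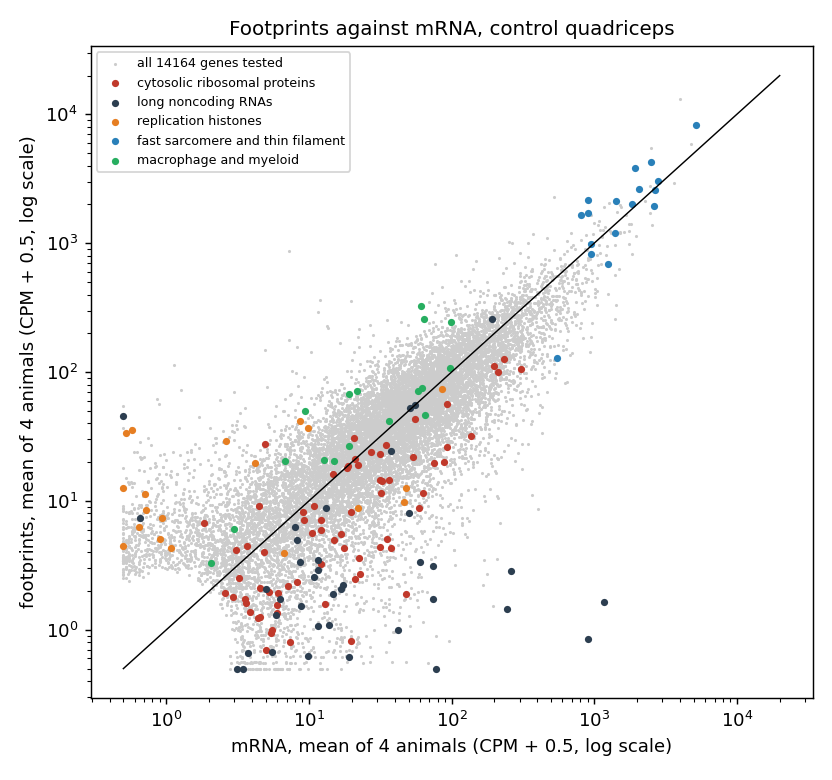
Mean footprint level against mean mRNA level of each tested gene in control quadriceps, in CPM (counts scaled to a common library total) plus 0.5 on log axes, with members of 5 gene lists coloured and a line of equality. Most long noncoding RNAs and ribosomal protein genes lie below the line, replication histones and macrophage genes mostly above it, and fast sarcomere genes close to it at the upper end.

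The mRNAs of the cytosolic ribosome carried few footprints for their abundance. Of 79 ribosomal protein genes, 71 passed the filter on low counts, and 52 of these were lower in footprints and 4 higher. Their median log2 ratio was -1.34, against -0.03 for all genes, and relative to all genes it ranged from -1.57 to -1.16 over the 4 animals. Over all 79 genes, they took 0.103% to 0.120% of footprint counts and 0.222% to 0.264% of mRNA counts, with no overlap between library types. The lower share in footprints was thus present in each of the 4 animals and did not rest on the filter. With a stricter filter of a mean of at least 50 counts in each library type, the median relative to all genes was -0.85.

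These mRNAs are known as TOP mRNAs: they begin with a run of pyrimidines (C or T in DNA) directly at the cap, through which mTOR signalling and LARP1 are known to control their entry into polysomes. To show that feature, 24 bases around the annotated start are printed (8 before and 16 from the first transcribed base on), with the uninterrupted pyrimidine run in capitals. The genes shown are ribosomal protein genes whose run of at least 8 pyrimidines covers the annotated start, the 4 with the lowest and the 4 with the highest log2 ratio, and the creatine kinase gene Ckm for contrast. Sequences and starts are from RefSeq on GRCm38.p6.
Rps18, chr17:33955650-33955673, minus strand: cttccgCTCTCTCTTCCacaggag
Rpl15, chr14:18270971-18270994, minus strand: aaagCCTTCTTCCTTTCCTCTggc
Rpl27a, chr7:109519187-109519210, plus strand: tgagCTCCTCCCTTTTCCCTTTCT
Rpl14, chr9:120571509-120571532, plus strand: CCCTCTCTCTTCTCgctgagcgcc
Rpl34, chr3:130730322-130730345, minus strand: TTTCCTCTTCCggggacggtgctc
Rplp2, chr7:141447643-141447666, plus strand: gcgTCTTCCTTTCgccgccggacg
Rpl38, chr11:114668572-114668595, plus strand: gcctcgTTCTTTCCCCgttctctt
Rpl7a, chr2:26910799-26910822, plus strand: CTTCTTTCTTTCTCCagcagccga
Ckm, chr7:19411086-19411109, plus strand: ctgCCCCCgggtcaccaccacctc
The first 4 had log2 ratios of -5.92, -5.10, -3.34 and -3.29, and the next 4 had -0.36, -0.18, 0.50 and 0.58. These genes were selected for their run, and the highest ratios of the list belong to genes that are not shown.

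Counting the longest pyrimidine run from 15 bases before to 25 after the start, a run of at least 8 was found in 23 of 52 ribosomal protein genes with a start within 100 bases of the counted gene (44.2%). Among all 10437 tested genes with such a start the share was 14.99%. Outside the ribosomal protein and other TOP lists, the run length did not move with the ratio: the median log2 ratio was -0.09 in genes with a run of at most 3 and -0.05 in the 500 genes with a run of 11 or more. Within the 2 lists it was -2.43 with a run of at most 3 (7 genes), -1.58 with a run of 4 or 5 (18 genes) and -1.44 with a run of 11 or more (14 genes). These letters describe the annotated start only, which can lie upstream or downstream of the start used in muscle.

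Among single ribosomal protein genes, Rps15 had footprint levels of 11.8, 9.29, 9.81 and 12.9 CPM in animals A, B, C and D, the order used throughout, and mRNA levels of 58.1, 55.8, 55.4 and 80.1 CPM. All footprint values lay far below all mRNA values, and the log2 ratio was -2.50 ± 0.14 (SE, adjusted p = 4.9e-11). Rpl32 was called at -2.81 ± 0.15 (SE, adjusted p = 3.6e-11) and Rpl15, with footprint levels of 0.219, 2.49, 1.59 and 1.27 CPM and mRNA levels of 43.5, 48.3, 48.5 and 49.6 CPM, at -5.10 ± 0.27 (SE, adjusted p = 3.7e-11). At the other end, the list reached 2.63, and below that Rpl36a had a log2 ratio of 2.21, Rps25 of 1.16 and Rpl7a of 0.58. These were among the 4 called higher, they are named here after their values were seen, and all have named pseudogenes. Rpl22, the gene that carries the HA tag in these animals, had 29.8, 16.8, 32.6 and 23.5 CPM in footprints and 102, 88.04, 85.8 and 95.3 CPM in mRNA, a log2 ratio of -1.87 ± 0.14 (SE, adjusted p = 1.9e-09), and has a named pseudogene. The shift of Rpl22 was also present in the knockout animals, at -2.18. Muscle also expresses a paralog of Rpl3: Rpl3l had footprint levels of 287, 231, 256 and 272 CPM and mRNA levels of 517, 556, 523 and 661 CPM (log2 ratio -1.11 ± 0.11 SE, adjusted p = 6.0e-08), while Rpl3 had 5.49, 10.6, 11.9 and 6.33 and 10.3, 9.07, 10.5 and 11.3 CPM, which overlapped, and was not called (log2 ratio -0.29, adjusted p = 0.32).

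Ribosomal protein genes have many near-identical pseudogenes, and reads that match a gene and its copies can be lost or split, which makes their levels uncertain. Of the 71 tested, 58 have an annotated pseudogene named after them and had a median of -1.70, while the other 13 had -0.81 with 10 lower and 0 higher. Over all tested genes, the 299 with such a copy had a median of -0.77 and the rest -0.02. Part of the size of the ribosomal protein shift therefore moved with the presence of a named pseudogene, and the direction was the same in genes without a named pseudogene. Copies annotated under other names were not counted. This split therefore cannot show whether the shift holds in genes free of copies.

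Other mRNAs of the TOP class, mostly elongation and initiation factors, followed the same direction, with 1 higher and 16 lower of 20 tested and a median of -0.82. Pabpc4, a poly(A)-binding protein, had a log2 ratio of -3.68 ± 0.15 (SE, adjusted p = 1.8e-12), and Hnrnpa1, a splicing regulator, of -3.60 ± 0.18 (SE, adjusted p = 1.9e-11). Eef2, the factor that moves the ribosome along the message, had footprint levels of 483, 355, 420.2 and 265 CPM against mRNA levels of 942, 961, 899 and 1226 CPM (log2 ratio -1.42 ± 0.16 SE, adjusted p = 4.9e-07). Eef1a1, which delivers aminoacyl-tRNA, had 43.4, 38.1, 36.6 and 28.1 CPM against 105, 99.2, 106 and 149 CPM (log2 ratio -1.63 ± 0.14 SE, adjusted p = 2.4e-08), whereas Eef1a2, the form that adult muscle uses in its place and which is not counted among TOP mRNAs here, had 1132, 1124, 1305 and 1158 CPM against 903, 901, 884 and 1224 CPM and missed the threshold (log2 ratio 0.28 ± 0.13 SE, adjusted p = 0.053). It was called under 8 of 14 alternatives, at 0.23 to 0.50, among them other scalings, DESeq2 and leaving out animal D. The difference between the 2 paralogs was not tested, and Eef1a1 and Eef2 have named pseudogenes. Naca, a chaperone subunit at the ribosome exit, was the 1 member called higher, at 0.80.

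Beyond the TOP class, the translation apparatus was mixed. Initiation factors had 13 higher and 19 lower of 41 tested with a median of -0.21. The lowest was Eif1, which guards start codon choice, at -4.21 (it has a named pseudogene), and the translation repressors Eif4ebp2 and Eif4ebp1 had -1.83 and -0.96. Eif4ebp1 levels were 28.3, 22.2, 27.3 and 33.9 CPM in footprints and 57.9, 49.3, 50.7 and 57.5 CPM in mRNA, without overlap. Aminoacyl-tRNA synthetases, which charge tRNAs, went the other way, with 20 higher and 4 lower of 36 tested and a median of 0.38. Mars2 at 1.96 and Lars at 0.87 were among the higher and Vars2 at -1.27 the lowest. Ribosomal proteins of mitochondria, whose mRNAs are not TOP mRNAs as a class, had 30 higher and 21 lower of 78 tested and a median of 0.05; the difference between both kinds of ribosome was not tested. Its members called with the smallest p were Mrpl46 at 1.57, Mrps14 at 1.43 and Mrps6 at 1.44, all higher. The remaining elongation and termination factors had 3 higher and 6 lower of 11 tested and a median of -0.22. Among them, Hbs1l, a partner in ribosome rescue, had -0.88 and the elongation factor Eif5a -0.62, and the 3 called higher were Gspt2, a termination factor, at 3.40, Eef1e1, a part of the multisynthetase complex, at 1.43 and Pelo, which rescues stalled ribosomes, at 1.18.

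**Figure D2:**
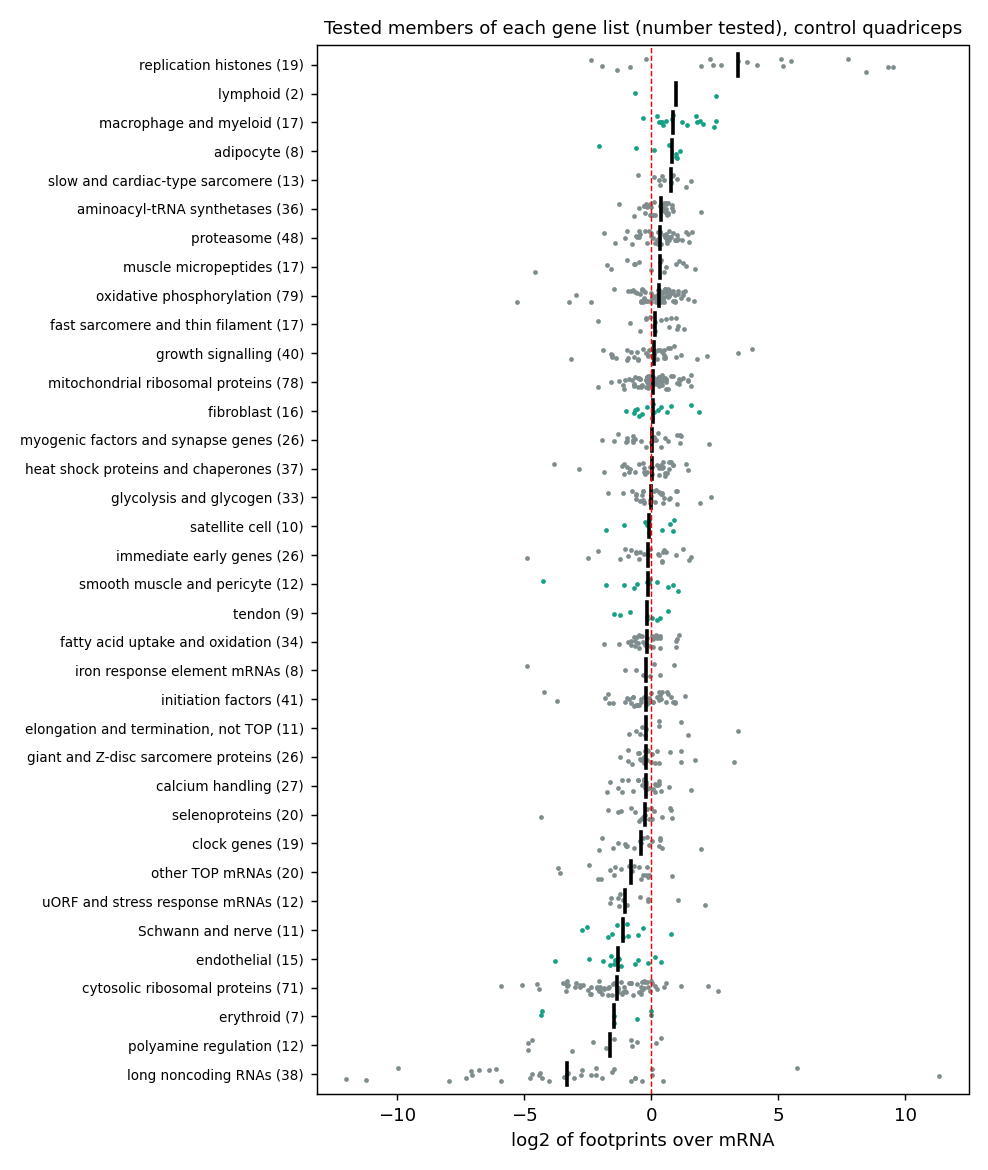
Log2 of footprints over mRNA for each tested member of each gene list in control quadriceps (grey, pathway lists; green, markers of other cell types), with the list median as a black bar and the median of all genes as a dashed line. Long noncoding RNAs (median -3.32), polyamine genes (-1.65) and cytosolic ribosomal proteins (-1.34) lie lowest and replication histones (3.39) highest, while most metabolic lists straddle the dashed line.

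Among mRNAs known for translational control by elements in their own sequence, most of the polyamine and upstream reading frame lists were lower in footprints. Polyamine regulation had 1 higher and 9 lower of 12 tested, with a median of -1.65 and a share of 0.0588% to 0.0881% of footprint counts against 0.120% to 0.160% of mRNA counts, without overlap. Amd1, an enzyme of polyamine synthesis whose mRNA has a polyamine-sensing upstream reading frame, had footprint levels of 2.63, 2.27, 4.77 and 5.06 CPM and mRNA levels of 94.4, 109, 87.7 and 126 CPM, a log2 ratio of -4.85 ± 0.17 (SE, adjusted p = 3.4e-13). Amd2 (-4.84) is annotated over nearly the same bases of the same strand, with the same footprint level in each animal. Both entries count the same footprints, and they enter the list's counts, median and shares as separate members. Odc1, the first enzyme of the pathway, had 10.97, 12.5, 13.8 and 9.62 CPM in footprints and 35.9, 77.4, 62.8 and 58.3 CPM in mRNA (log2 ratio -2.29 ± 0.16 SE, adjusted p = 1.2e-09). Sms, spermine synthase, had -4.68 and Oaz1, the antizyme made through a frameshift, -3.12; both have named pseudogenes. Azin1, the antizyme inhibitor, was the 1 member called higher (0.36). Leaving out genes with a named pseudogene brought the polyamine median, relative to all genes, from -1.62 to -0.77.

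Of 12 mRNAs with regulatory upstream reading frames, most of them of the stress response, 2 were higher and 8 lower, with a median of -1.04. The counts cover whole gene bodies, so footprints on an upstream frame are counted with those on the main frame. These ratios are therefore not those of the main frame alone. Atf4, the transcription factor at the centre of that response, had footprint levels of 84.2, 111, 94.4 and 109 CPM and mRNA levels of 215, 252, 233 and 267 CPM (log2 ratio -1.28 ± 0.09 SE, adjusted p = 1.1e-09). Atf5 and Ddit3, other transcription factors of that response, had -1.58 and -1.25, and Slc35a4 had -1.62. Ppp1r15a, the stress-induced phosphatase subunit, had -0.98, and its constitutive partner Ppp1r15b, with 63.4, 63.4, 51.2 and 50.9 against 67.04, 60.4, 64.2 and 56.8 CPM, was not called (log2 ratio -0.12 ± 0.10 SE, adjusted p = 0.30). Cebpb at 2.09 and Uchl1 at 1.03 were the exceptions on the higher side.

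The ferritin mRNAs, which iron regulatory proteins are known to hold back through an element near the cap, were both low. Ftl1, the light chain, had 1.32, 0.906, 3.18 and 2.79 CPM in footprints against 55.8, 49.8, 57.9 and 76.9 CPM in mRNA, a log2 ratio of -4.91 ± 0.21 (SE, adjusted p = 3.4e-12), and it has named pseudogenes. Fth1, the heavy chain, had 186, 172, 201 and 183 CPM against 347, 348, 353 and 519 CPM (log2 ratio -1.06 ± 0.11 SE, adjusted p = 2.3e-07). Alas2, an enzyme of haem synthesis with an element of the same kind, was higher at 0.90. Across the 8 genes of the list the median was -0.20, with 2 higher and 4 lower. Selenoprotein mRNAs, which read a stop codon as selenocysteine, had 4 higher and 10 lower of 20 tested; the most reduced were Selenok at -4.36, which has a named pseudogene, Gpx3, the secreted glutathione peroxidase, at -1.70, and Selenon, a selenoprotein of the muscle reticulum, at -1.31.

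Contractile mRNAs differed by group, and those of slow fibres were mostly called higher in footprints. The slow and cardiac-type sarcomere list had 11 higher and 1 lower of 13 tested, with a median of 0.75 that ranged, relative to all genes, from 0.58 to 0.75 over the animals. Tnnc1, the calcium sensor of slow fibres, had footprint levels of 345, 279, 296 and 313 CPM and mRNA levels of 137, 79.4, 94.4 and 118 CPM (log2 ratio 1.55 ± 0.10 SE, adjusted p = 4.8e-10). The slow myosin light chain Myl3 had 0.995, the slow troponin T gene Tnnt1 0.75, the slow myosin Myh7 0.78 and the Z-disc protein gene Myoz2, the 1 lower member, -0.53. The list took 0.590% to 0.710% of footprint counts and 0.359% to 0.455% of mRNA counts, so these shares did not overlap. For single genes, all footprint values lay above all mRNA values in 4 of the 13, against 31.3% of all genes, and below them in 1.

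Fast-fibre genes, which dominate quadriceps, had 8 higher and 3 lower of 17 tested and a median of 0.15. Acta1, skeletal actin, had 3744, 3985, 4863 and 4567 CPM in footprints and 2178, 2250.4, 2241 and 3389.8 CPM in mRNA (log2 ratio 0.79 ± 0.16 SE, adjusted p = 2.6e-04). Among the fast myosins, Myh4 had 8336, 7813, 9618 and 7348 against 4782, 4919, 4376 and 6533 CPM (log2 ratio 0.69 ± 0.19 SE, adjusted p = 0.0039), Myh2 had a log2 ratio of 0.56 ± 0.14 (SE, adjusted p = 0.0018) and Myh1 of 0.36 ± 0.16 (SE, adjusted p = 0.045). The Myh1 call was lost without animal A, B or C, at 0.32, 0.41 and 0.22, and also without the animal block (0.35), with at least 50 counts in each type (0.32) and without genes with a named pseudogene (0.35). That of Myh4 was lost without animal A, at 0.65. The footprint and mRNA values of Acta1, Myh4 and Myh2 did not overlap, whereas those of Myh1 did. The fast troponin C gene Tnnc2 at 1.30 and the fast light chain Mylpf at 1.05 were higher, and the Z-disc gene Myoz3 at -2.11 lower. All 17 genes of this list, and 11 of the slow list, carried more than 1 tag per exon base in some library. The deposited counts hold at most 5 tags per position, so for such genes the count is bounded by length as well as by abundance; over all genes, the 907 near this limit had a median of -0.34 and the rest -0.00.

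The giant and Z-disc proteins differed among themselves, with 6 higher and 11 lower of 26 tested and a median of -0.22. Relative to all genes, that median was 0.51 without the 20 members near the position limit. Ttn, titin, whose tag density stayed below that limit, had 15431, 10086, 13581 and 13273 CPM in footprints and 3854, 4064, 3497 and 4639 CPM in mRNA, a log2 ratio of 1.70 ± 0.20 (SE, adjusted p = 9.2e-07). Neb, nebulin, had 1.15, while the actin-binding Xirp2 had -1.22. The developmental myosins Myh3 and Myh8, which the list also holds and which are among its 6 called higher, were at 3.26 and 1.16. Myh3 was a gene of low mRNA level, at 9.03, 6.01, 6.16 and 6.14 CPM, with footprints at 89.95, 57.5, 72.9 and 43.04 CPM.

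**Figure D3:**
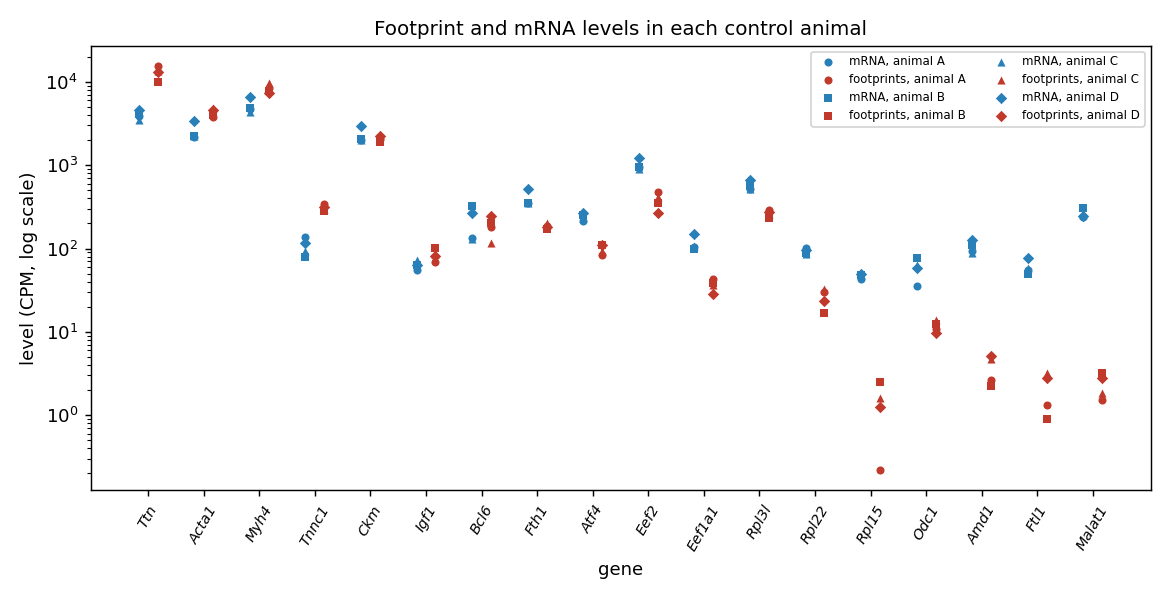
Footprint (red) and mRNA (blue) levels of 18 genes in each control animal, in CPM on a log axis, with 1 symbol per animal. Ttn and Acta1 sit higher in footprints in all 4 animals, Ckm and Bcl6 overlap, and Rpl15, Amd1, Ftl1 and Malat1 show the widest separation, with footprints at the lower values.

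Calcium handling had 4 higher and 14 lower of 27 tested and a median of -0.22. Jph2, which ties the T-tubule to the reticulum, had -1.63, the calcium channel Cacna1s -1.33 and Fkbp1a, a release channel subunit with a named pseudogene, -1.75, while the release channel Ryr1 (0.17) was not called, although it was without scaling (0.29) and without animal D (0.34). The calcium buffer Pvalb, parvalbumin, had 1689, 1932, 2291 and 2348 CPM in footprints and 1153, 1215, 1119 and 1620.4 CPM in mRNA (log2 ratio 0.70 ± 0.13 SE, adjusted p = 1.7e-04), and S100a1, which modulates release, 1.56. The calcium pump Atp2a1 was not called (log2 ratio 0.31 ± 0.18 SE, adjusted p = 0.13), with 5361, 5762, 6851 and 5512 against 4249.8, 4362, 4296 and 6176 CPM; it was called under 5 of 14 alternatives, at 0.26 to 0.53, among them DESeq2 and leaving out animal D. Among short reading frames of muscle, the pump regulators differed widely. Sln, sarcolipin, had 5.27, 6.34, 15.1 and 14.4 CPM against 2.85, 3.06, 9.54 and 5.80 CPM (log2 ratio 0.96 ± 0.26 SE, adjusted p = 0.0028), a call that was lost without the animal block, at 0.94. Mrln, myoregulin, had 1.22, and Pln, phospholamban, had -4.59, the lowest of the 17 micropeptide genes tested (7 higher, 6 lower).

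Among the lists of energy metabolism, oxidative phosphorylation had more genes called higher than lower. It had 44 higher and 19 lower of 79 tested with a median of 0.29, and took 1.92% to 2.29% of footprint counts against 1.44% to 1.89% of mRNA counts, without overlap. Small subunits of the ATP synthase and of complex I had the smallest p among those called, with Atp5k at 1.66, Atp5j at 1.43 and Ndufc2 at 1.23. Of these 79 genes, 62 were near the position limit, and the 17 others had a median of -0.35 relative to all genes in the fit without such genes, against 0.33 for the whole list, so the direction of this list is not settled. Glycolysis had 12 higher and 13 lower of 33 tested, with a median of -0.02; the bisphosphatase Fbp2 had 1.01, and Ldha and Pgk1, both with named pseudogenes, -1.11 and -1.70. Ckm, muscle creatine kinase, had 2039, 1907.1, 2226 and 2259.7 CPM against 2021, 2065, 2002 and 2967 CPM and was not called (log2 ratio -0.09 ± 0.14 SE, adjusted p = 0.60). Fatty acid oxidation had 10 higher and 15 lower of 34 tested, with Acot13 at 0.98, the uncoupler Ucp3 at -1.27 and the carnitine acetyltransferase Crat at -1.86. 

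Protein turnover and folding genes were mixed, with more proteasome genes above than below the average. Proteasome genes had 30 higher and 11 lower of 48 tested and a median of 0.33, and took 0.751% to 0.774% of footprint counts against 0.552% to 0.579% of mRNA counts, without overlap. Psmd10 and Psmd5, chaperones of proteasome assembly, had 1.60 and 1.43, and Psmd11, a lid subunit, had -1.86. Heat shock proteins and chaperones had 17 higher and 13 lower of 37 tested. Hspb3, a small heat shock protein of muscle, had 106, 108, 117 and 124 CPM in footprints and 40.7, 39.9, 44.8 and 44.2 CPM in mRNA (log2 ratio 1.42 ± 0.09 SE, adjusted p = 4.4e-10). Dnaja1, a co-chaperone of the cytosol with a named pseudogene, had -2.86 and Hspa1l, a relative of the inducible Hsp70, -3.84. The autophagy gene Map1lc3b, among the lowest of all, is described with the lowest genes.

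Signalling genes spread over a wide range without a common direction. Growth signalling had 16 higher and 16 lower of 40 tested. Sesn3, a sestrin that restrains mTOR, had 3.97, Fbxo30, a ubiquitin ligase of the atrophy programme, 2.19 and Foxo4, a transcription factor below insulin signalling, -3.16. Exons fill 4.31% of the counted span of Sesn3, and its mean mRNA level was 2.62 CPM. The ratio moved with exon share, as described below. Foxo4 levels were 39.3, 38.97, 37.4 and 47.9 CPM in footprints and 371, 363, 360.4 and 365 CPM in mRNA, without overlap. Igf1, the growth factor, had 69.3, 101, 85.1 and 80.8 CPM in footprints and 55.4, 63.6, 71.97 and 62.9 CPM in mRNA (log2 ratio 0.40 ± 0.10 SE, adjusted p = 0.0016). Bcl6 itself had 181, 203, 115 and 248 CPM against 135, 319, 128 and 265.6 CPM and was not called (log2 ratio -0.13 ± 0.13 SE, adjusted p = 0.39); the values of both library types covered much the same range. Its ratio was called at -0.31 without animal A and was 0.0792 without animal B. Clock genes had 4 higher and 11 lower of 19 tested, with Per3 at -1.95, Per1 at -1.31 and Tef at -1.53 low and Npas2 at 1.97 high. Immediate early genes had 8 higher and 11 lower of 26 tested, from Myc at 1.56 and Junb at 1.47 to Jund at -2.11 and Klf4 at -2.51. Among myogenic and synapse genes (9 higher and 11 lower of 26 tested), Musk, the receptor kinase of the neuromuscular junction, had 2.26 and Mef2d -1.49. Exons fill 3.85% of the counted span of Musk.

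Long noncoding RNAs, which are not known for translated reading frames, held few footprints for their abundance. Long noncoding RNAs on the list took 0.0496% to 0.0554% of footprint counts and 0.310% to 0.359% of mRNA counts over all its members. Of 47, 38 passed the filter, 32 of them lower and 3 higher, and since a member could pass on mRNA alone this count has no weight of its own. The list includes Rpph1, a small structured RNA described with the histones, which had its highest log2 ratio (11.3). Malat1, a nuclear RNA, had 1.54, 3.17, 1.86 and 2.79 CPM in footprints and 239, 306, 253 and 245 CPM in mRNA (log2 ratio -6.80 ± 0.15 SE, adjusted p = 3.0e-15). Meg3, an imprinted RNA, had 1.32, 0.680, 1.33 and 0.506 against 296, 157, 251 and 272 CPM. Neat1, the scaffold of paraspeckles, had 1.10, 1.36, 1.33 and 0.760 against 1109.9, 1073, 1102 and 1411 CPM, and H19 0, 0.906, 0 and 0.506 against 979.8, 815, 821 and 1001 CPM. The transcript 2900097C17Rik had no footprint in any library (up to 0.180 CPM is allowed by a count of 0 over the 4 libraries, taken as 3 counts) and 71.7, 79.8, 73.2 and 87.1 CPM in mRNA, at least 427-fold lower. Gm20300 and 1700113A16Rik each had 1 footprint in all 4 libraries together. As a class, the 702 tested genes annotated as noncoding RNA had a median of -1.22, with 58.3% lower and 24.9% higher, against -0.00 for the 13076 with an mRNA accession; the same limit holds for this count, since a gene could pass on mRNA alone. With a mean of at least 50 counts in each library type, the median of the list relative to all genes was -0.0307.

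Replication histones took a larger share of footprints than of mRNA. The mRNAs of replication histones end in a stem-loop in place of a tail, and the mRNA libraries were made from poly(A) RNA. Histone genes took 0.0342% to 0.0447% of footprint counts and 0.0191% to 0.0246% of mRNA counts over all 69 members, without overlap. Hist1h4c had 38.2, 27.2, 36.3 and 31.1 CPM in footprints and a single count in the mRNA libraries, and Hist4h4 and Hist1h1d had log2 ratios of 8.45 and 3.76, which for genes this low in mRNA depend on the prior count of the fit. Only 19 passed the filter, 14 higher and 4 lower, a count without weight, since most members could pass only where footprints were high. Those called lower, named after their values were seen, were Hist1h4i at -0.86 (not called with DESeq2, at -0.83, without genes of low exon share, at -0.65, or without animal B or C, at -0.79 and -0.84), Hist2h2be at -1.38, Hist1h2be at -1.95 and Hist1h2bc at -2.37. Histone genes of 1 type are near-identical in sequence, so single members are uncertain. Small structured RNAs were also seen in footprints and hardly in mRNA. Snord118, a small nucleolar RNA, had 47.2, 64.6, 57.3 and 47.6 CPM and Rpph1, the RNA of RNase P, 61.4, 39.9, 56.5 and 24.3 CPM in footprints, with no mRNA count in any library, at least 654-fold and 554-fold higher. The vault RNA Vaultrc5 had 42.3, 42.8, 41.4 and 20 CPM against 2 mRNA counts in all. These are noncoding, so a count in the footprint libraries is not by itself a translating ribosome.

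Among protein-coding mRNAs with at least 10 CPM in both library types, the 8 with the highest ratios were Pdpr (4.99), Il1rapl1 (4.75), Ppp1r12b (4.22), Trip11 (4.12), F830016B08Rik (4.10), Zbtb38 (3.39), Dennd4c (3.30) and Usp9x (3.19). Pdpr, a regulator of pyruvate dehydrogenase, had 366, 385, 395 and 305 CPM in footprints and 10.2, 15.3, 11.1 and 9.21 CPM in mRNA. Ppp1r12b, a targeting subunit of myosin phosphatase, had 366, 317, 353 and 394 against 19.02, 25.8, 15.8 and 15.9 CPM. All 4 footprint values of each of these 8 genes lay above all 4 mRNA values, as in 31.3% of all genes. Selecting these genes by ratio, with 1 sign in all 4 animals, made this nearly certain. Their median span was 88814 bases with a median of 8.04% exonic, against 28137 bases and 9.82% for the 8 lowest genes described next. Il1rapl1 spans 1368381 bases with 0.199% of them exonic, and Ppp1r12b spans 189997 bases with 1.64%. Oca2, a pigment cell gene that spans 296746 bases with 1.04% exonic, had 25.4, 38.3, 45.6 and 36.2 CPM in footprints and no count in mRNA, at least 434-fold higher.

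The deposited counts cover whole gene bodies, introns included, so a tag inside an intron counts toward its gene. The ratio moved with this geometry. In the 929 genes whose exons are under 2% of the span the median log2 ratio was 1.07, with 67.9% called higher, and in the 3199 with 20% to 50% it was -0.36, with 23.9% called higher. These shares carry a limit of the filter, since a gene could pass on footprints alone. Of the 566 tested genes under 1 CPM in mRNA, 100% were called higher, with a median of 4.23. How these genes spread over the exon shares was not tested. Whether intronic tags set the values of the long genes was not tested, since the tables do not separate introns from exons.

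**Figure D4:**
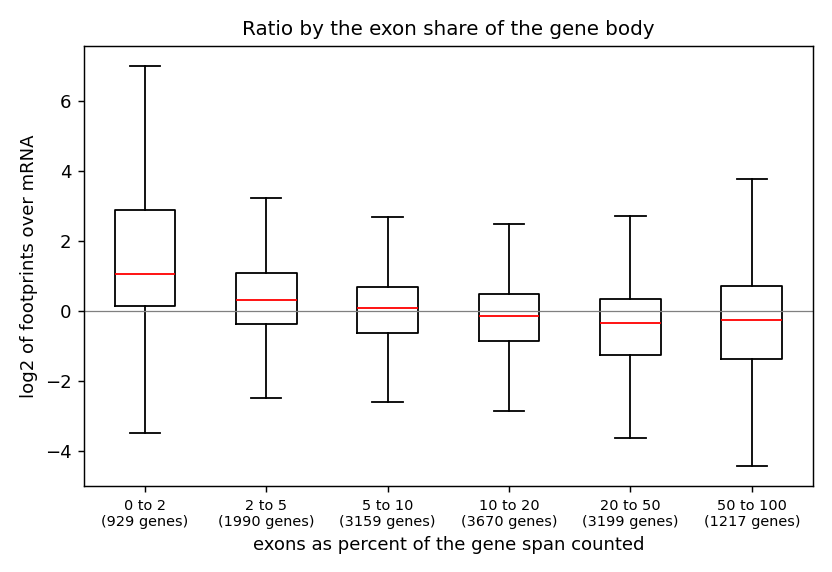
Log2 of footprints over mRNA by the share of the counted gene span that is exonic, over the genes tested in control quadriceps (box, 25th to 75th percentile; red line, median; whiskers, 1.5 times the box). The median falls from 1.07 in the genes with under 2% exon to -0.36 in those with 20% to 50%. Genes that passed the filter on footprints alone are included.

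The 8 lowest ratios of protein-coding mRNAs under the same limits were those of Tmcc2 (-4.40), Pigf (-4.23), Mfsd4a (-4.01), Map1lc3b (-3.97), Gid4 (-3.80), Got2 (-3.70), Zfp651 (-3.68) and Map3k15 (-3.66). Map1lc3b, which encodes the autophagosome protein LC3B, had 8.995, 11.6, 10.3 and 16.7 CPM in footprints against 166, 181, 187 and 207 CPM in mRNA. Got2, the mitochondrial aspartate aminotransferase, had 13.6, 16.99, 11.7 and 21.3 against 178, 204, 187 and 253 CPM and has a named pseudogene. Gid4, a substrate receptor of a ubiquitin ligase, had 24.1, 19.7, 16.4 and 19.7 against 254, 306, 279 and 278 CPM. Tmcc2 had 9.65, 9.06, 12.2 and 9.11 against 178, 224, 225 and 219 CPM. All 4 footprint values of each of the 8 genes lay below all 4 mRNA values, as in 33.9% of all genes, and here too the selection made this nearly certain. In the same order, the last 4 genes described had knockout ratios of -3.78, -3.72, -3.63 and -4.17.

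Genes known from non-muscle cell types did not share 1 direction. Of 107 tested markers of 10 cell types, 32 were higher and 42 lower in footprints, with a median of -0.14. In bulk tissue, fewer cells of a type and less RNA per cell cannot be told apart, and here neither can a lower ribosome load and fewer tagged ribosomes of that type. Endothelial genes had 1 higher and 12 lower of 15 tested (median -1.33), and took 0.0592% to 0.0972% of footprint counts against 0.132% to 0.157% of mRNA counts. Egfl7, a vessel factor, had -3.78, the angiopoietin receptor relative Tie1 -1.45 and Eng, endoglin, -1.49, while the VEGF receptor Kdr was higher at 0.36. Schwann and nerve markers had 1 higher and 8 lower of 11 tested, with the myelin gene Mbp at -2.74. Globin and other erythroid genes had 0 higher and 5 lower of 7 tested, with Hbb-bs at -4.34 and Hbb-b1 at -4.31. These entries are annotated over nearly the same bases of the same strand and had the same footprint level in each animal. They thus count the same footprints as separate members of the list. Globin genes can also share reads with near-identical copies.

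Macrophage and myeloid genes went the other way, with 11 higher and 0 lower of 17 tested and a median of 0.84. They held 0.129% to 0.174% of footprint counts and 0.0303% to 0.0788% of mRNA counts, without overlap. Ptprc, the leukocyte phosphatase CD45, had 59.02, 55.1, 48.2 and 36.2 CPM in footprints and 12.3, 3.57, 10.4 and 9.38 CPM in mRNA (log2 ratio 2.54 ± 0.23 SE, adjusted p = 4.0e-08), and the mannose receptor Mrc1 305, 369, 379 and 257 against 60, 33.5, 71.1 and 77.9 CPM (log2 ratio 2.48 ± 0.18 SE, adjusted p = 2.3e-09). C1qa, a complement subunit that the same cells secrete, was not called (0.43); it was called under 6 of 15 alternatives, at 0.38 to 0.69, the highest without animal D. The size varied between animals: relative to all genes, the list median ranged from 0.40 to 1.75. Exons fill 4.92% of the counted span of Ptprc and 5.15% of that of Mrc1. In the 13 members with exons of at least 10% of the span, the list median was 0.57. Adipocyte genes had 5 higher and 1 lower of 8 tested, with Retn at 1.13 and Cfd at 0.95 higher and Cidec at -2.07 lower. Footprint and mRNA values overlapped for each of the 8, the list's shares overlapped (0.0529% to 0.0738% of footprint and 0.0185% to 0.0802% of mRNA counts), and its median relative to all genes ranged from -0.20 to 1.28 over the animals. Fibroblast genes had 5 higher and 6 lower of 16 tested, from Fbn1, a microfibril protein, at 1.88 and Pdgfra at 1.54 to Smoc2 at -1.003. Smooth muscle genes had 3 higher and 5 lower of 12 tested, from the actin-binding Tagln at -4.28 to the smooth muscle myosin Myh11 at 1.04. Tendon genes had 2 higher and 3 lower of 9 tested, with the keratan sulphate proteoglycans Fmod at -1.46 and Kera at -0.86. Satellite cell genes had 3 higher and 2 lower of 10 tested, with the Notch targets Heyl at -1.78 and Hes1 at 0.84; 2 of 14 lymphoid genes could be tested. Of the defining markers, Cd79a and S100a8 were among those below the filter.

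The footprint over mRNA ratios were measured again in the 4 knockout animals, which share no library with the controls. Bcl6 itself, counted over the whole gene body, stood at 99.6, 109.6, 87.6 and 70.6 CPM in the knockout footprint libraries and at 279, 255, 191 and 212 CPM in the knockout mRNA libraries; the footprint values lay below those of the controls and the mRNA values within their range. The deleted exons are not given in the sources used here, so these counts do not check the labels. There, 5326 of 14479 genes (36.8%) were higher and 5507 (38%) lower. Of genes called higher in controls, 84.2% were called the same way in knockouts, and of those called lower 83.3%. Across 13967 genes the log2 ratios of the genotypes had a Pearson correlation of 0.926, a description over genes that share length, base composition and protocol. Cytosolic ribosomal proteins had a median of -1.51 in knockouts, other TOP mRNAs -0.88, polyamine genes -1.61 and slow sarcomere genes 0.62, close to the control medians. Malat1 had -7.48, Amd1 -5.83, Ftl1 -5.51, Rpl22 -2.18 and Ttn 2.41.

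Some marker lists were less alike between genotypes. The median of endothelial genes was -1.33 in controls and -2.75 in knockouts, that of macrophage genes 0.84 and -0.04, and that of Schwann genes -1.14 and -2.41. That of erythroid genes hardly moved, at -1.46 and -1.43. Outside the marker lists, the medians of long noncoding RNAs (-3.32 and -4.72) and replication histones (3.39 and 4.81) also differed. The difference itself, the interaction of genotype and library type over 16 libraries, was called for 1717 of 14935 genes (11.5%). Knockout minus control, it was -1.69 for Ptprc (adjusted p = 0.023) and -1.72 for Tie1 (adjusted p = 0.0091). Bcl6, the gene targeted in the knockouts, had -0.13 in controls and -1.35 in knockouts (difference -1.27, adjusted p = 0.0034), and Igf1 0.40 and -0.52 (difference -0.97, adjusted p = 0.0048). Whether marker lists as a group differed more than other lists was not tested.

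**Figure D5:**
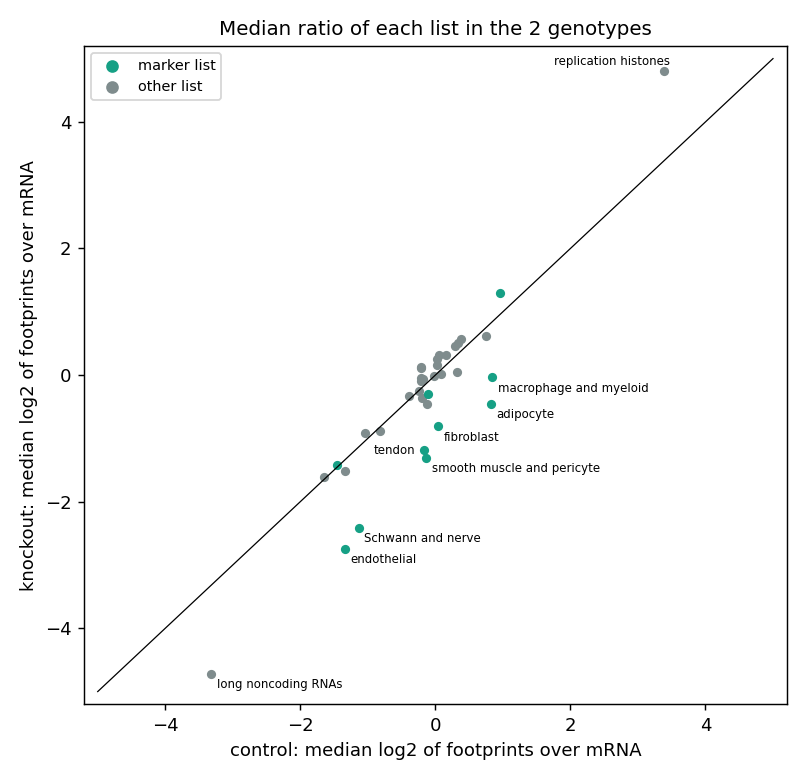
Median log2 of footprints over mRNA of each gene list in control (horizontal) and knockout (vertical) quadriceps, with a line of equality, green for markers of other cell types and grey for other lists, and names where the medians differ by over 0.5. Grey lists lie along the line apart from the noncoding and histone lists at its ends, while most green lists fall below it.

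The authors' deposited table gives its own control ratio, TEcontrol, for 12889 of the tested genes. Its rank correlation with the log2 ratios here was 0.897 across genes, and its median was 0.530 on a linear scale, so the scaling differs. In the authors' deposited table TEcontrol was 0.175 for Eef2, 0.613 for Bcl6 and 0.00577 for Amd1. Ttn, with a log2 ratio of 1.70 here, had 0.648 there, only a little above that table's median. Not all genes had like places in both: Map3k15 and Pigf, among the 8 lowest here, had 6.13 and 0.640 in the authors' deposited table, above its median.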

How the data were processed

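Footprint and poly(A) RNA libraries of 4 control and 4 knockout quadriceps were used, grouped by their labels. The authors deposited raw counts per gene, made with HOMER on mm10 per the file headers, over whole gene bodies with introns, with at most 5 tags per position and 1 transcript per gene; a strand setting is not given in the sources used here. The submitters' processing notes name Bowtie 1.2, STAR 2.4.0 and DESeq2 1.14.1 for the series, without saying which made these counts. The authors' deposited table of translation efficiency gives a linear ratio per gene for the pooled controls, which was used for 1 comparison. Exon lengths came from another table that the authors deposited, and starts and sequences from RefSeq (GRCm38.p6, 10437 of 14164 tested genes matched).

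In R 4.3.3, genes were kept by edgeR 4.0.16's filterByExpr (minimum count 10), scaled by TMM and tested with the quasi-likelihood test for library type with the animal as a block; p-values were adjusted by Benjamini-Hochberg over all genes tested, and 0.05 was the threshold. Levels are CPM (counts scaled to a common library total). Ratios of single animals used a pseudocount of 0.5 CPM. A log2 ratio is given with its SE from the fit over 4 animals. The difference between genotypes was the interaction over 16 libraries. Floors (3 counts for a count of 0, over the 4 libraries) cover counting error only. The block rests on both libraries coming from the same animal. Residuals of the 2 libraries of an animal had correlations of 0.408, 0.0954, 0.100 and 0.0741. Those of libraries of different animals ranged from -0.246 to 0.173, and only animal A lay above that range. Scripts were tested on simulated data. Figures used Python 3.11.15 and matplotlib 3.10.9.

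Genes were named by rule: 25 fixed genes; the 8 highest and 8 lowest ratios of called mRNAs with at least 10 CPM in both types and 1 sign in 4 animals; the 5 highest and 5 lowest of any RNA with at least 20 CPM in the higher type; up to 3 called members of each list with the smallest p; and any member of a list of up to 30. Some genes that the rule names are not reported here. Exceptions are stated where they occur, and the genes whose sequences are printed were chosen by ratio among those with a start run. The members and lists were chosen with earlier results of these data known. Alternatives covered scaling, filters, the block, DESeq2 1.42.0, a fit of all 16 libraries, the position limit, each animal left out, exon share and named pseudogenes.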

Additional observations from a re-analysis of the deposited data

Results flagged for a closer look

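Among the 169 genes named, 36 of 338 groups of 4 control libraries held 1 library far from the other 3 by Dixon's test at the 95% level, which chance gives in about 1 in 20 groups. Most were the mRNA library of animal D, the shallowest of the mRNA libraries, and the range of the other 3 libraries follows each value in parentheses. In that library the contractile and metabolic genes were higher, at 3390 CPM for Acta1 (2178 to 2250), 2967 CPM for Ckm (2002 to 2065) and 6176 CPM for Atp2a1 (4250 to 4362). The same held at 1220 CPM for Tnnc2 (776 to 802), 1098 CPM for Mylpf (701 to 721) and 820.1 CPM for Ldha (573 to 590.2). Further metabolic genes stood at 198 CPM for Atp5j (141 to 149.9) and 74.2 CPM for Atp5k (47.9 to 50.2). Translation and iron genes stood at 1224 CPM for Eef1a2 (884 to 903), 149 CPM for Eef1a1 (99.2 to 106), 265 CPM for Eif5a (206 to 213), 519 CPM for Fth1 (347 to 353) and 80.1 CPM for Rps15 (55.4 to 58.1). Other genes high in it stood at 146 CPM for Eif1 (106 to 109.7) and 1411 CPM for Neat1 (1073 to 1110). Erythroid genes were high there too, at 70.9 CPM for Hbb-bs (35.9 to 40.95), 69.7 CPM for Hbb-b1 (35.4 to 39.7) and 19.3 CPM for Alas2 (9.03 to 10.5), whereas 1 stress gene was lower, at 41.1 CPM for Ddit3 (55.1 to 56.4). Hbb-bs and Hbb-b1 are overlapping entries that count largely the same tags. In the footprints of animal D, 1 structured RNA was lower, at 20 CPM for Vaultrc5 (41.4 to 42.8).

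Animal A stood apart in nerve and slow-fibre genes. Its mRNA was at 183 CPM for Mbp (74.1 to 80.99) and 766 CPM for Myh7 (418 to 462), and its footprints at 27.6 CPM for Mbp (10.9 to 12.01) and 1217 CPM for Myh7 (739 to 820.5). Its mRNA was also at 9.03 CPM for Myh3 (6.01 to 6.16), 141 CPM for Atf5 (126 to 127), 215 CPM for Per1 (424 to 442) and 178 CPM for Tmcc2 (219 to 225). Its footprints were at 50.9 CPM for Hes1 (30.4 to 31.9), 244 CPM for Lars (184 to 188), 109 CPM for Cebpb (171 to 181) and 3.29 CPM for Rpl36a (7.02 to 7.42). In the footprints of animal B, 1 immediate early gene was lower, at 33.8 CPM for Myc (49.3 to 50.5). Single counts gave the remaining cases, at 0.253 CPM for 1700113A16Rik (0 to 0) and 0.219 CPM for Gm20300 (0 to 0) in footprints and 0.0951 CPM for Hist1h4c (0 to 0) in mRNA.

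The log2 ratio differed between knockout and control animals for 29 of these genes, against 1717 of 14935 (11.5%) over all genes. Values are given as knockout minus control, from the test of the difference (edgeR, 16 libraries, adjusted over all genes). Many of these genes were named for extreme or small-p ratios in the same control libraries, which also enter the difference. Their number and directions therefore have no weight of their own. Vessel and smooth muscle genes were lower in knockouts, at -1.72 for Tie1 (adjusted p = 0.0091), -1.30 for Eng (adjusted p = 0.0049), -1.49 for Kdr (adjusted p = 0.0023), -1.77 for Myh11 (adjusted p = 0.020) and -1.20 for Heyl (adjusted p = 0.014). Macrophage genes were lower too, at -1.69 for Ptprc (adjusted p = 0.023) and -1.37 for Mrc1 (adjusted p = 0.023), as were connective tissue genes, at -1.16 for Fbn1 (adjusted p = 0.032), -1.26 for Pdgfra (adjusted p = 0.037), -0.99 for Fmod (adjusted p = 0.029) and -1.47 for Kera (adjusted p = 0.0023), and adipocyte genes, at -1.34 for Cfd (adjusted p = 0.022) and -1.59 for Retn (adjusted p = 0.022). Genes of translation, stress and blood formation followed at -1.53 for Rpl3 (adjusted p = 0.039), -0.91 for Rpl7a (adjusted p = 0.019), -1.44 for Dnaja1 (adjusted p = 0.029), -1.65 for Selenon (adjusted p = 0.048) and -1.83 for Alas2 (adjusted p = 0.013). Muscle and signalling genes were at -1.27 for Bcl6 (adjusted p = 0.0034), -0.97 for Igf1 (adjusted p = 0.0048), -1.04 for Sln (adjusted p = 0.0057), -1.25 for Myh3 (adjusted p = 0.0038), -0.44 for Myh7 (adjusted p = 0.043) and -0.86 for Klf4 (adjusted p = 0.043). The difference was above 0 at 0.98 for Foxo4 (adjusted p = 0.0030), 0.52 for Azin1 (adjusted p = 0.04995) and 1.90 for Hist1h1d (adjusted p = 0.013). Structured RNAs had -4.74 for Rpph1 (adjusted p = 0.024) and -4.16 for Vaultrc5 (adjusted p = 0.042), values that depend on the prior count since the mRNA libraries of the controls held 0 and 2 counts of them.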

How the results depend on the processing

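The direction of 19 of 36 list medians was the same under every alternative run, relative to the median of all genes as are all list values here, and those of the cytosolic ribosomal proteins, other TOP mRNAs, polyamine genes, long noncoding RNAs, endothelial genes, slow sarcomere genes, macrophage genes and replication histones were among them. Without the animal block, Sln (0.94) and Myh1 (0.35) lost their call and no other gene named changed its call; 4926 genes were higher and 5211 lower in controls and 5314 and 5492 in knockouts. Leaving out 1 animal gave 4616 to 5220 higher and 4946 to 5427 lower genes in controls, and 4833 to 5296 and 4919 to 5632 in knockouts. Without scaling beyond the library total, the median of all genes moved from -0.03 to 0.08 and the share of higher calls from 48.6% to 53.8%. Ckm, which was not called, turned to 0.0315 there and, with upper quartile scaling, to 0.0028.

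With a mean of at least 50 counts in each library type, 3526 genes were lower, and the medians were -0.85 for cytosolic ribosomal proteins, -0.81 for polyamine genes, -0.0307 for long noncoding RNAs and 0.83 for histones; this filter by construction removes genes that are low in either type. It turned glycolysis to -0.0531 and immediate early genes to 0.23. With no filter, the medians were -1.54, -2.003, 0.55 and 2.49 for ribosomal proteins, polyamine genes, slow sarcomere genes and histones. Lists near 0 turned sign: fast sarcomere -0.0481, growth signalling -0.11, mitochondrial ribosomal proteins -0.15, fibroblast -0.16, myogenic -0.17, chaperones -0.18, glycolysis -0.22 and lymphoid -0.64. Fitting all 16 libraries together turned glycolysis to -0.0014.

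Without genes near the position limit, other TOP mRNAs had -1.17 and slow sarcomere genes 1.10, and oxidative phosphorylation turned to -0.35, iron genes to 0.0299, tendon to 0.0349 and giant sarcomere proteins to 0.51. The last 2 alternatives were chosen after seeing the data. Without genes whose exons fill under 10% of the span, 2840 genes were higher and 3039 lower, fewer genes being tested. Long noncoding RNAs then had -3.81, slow sarcomere genes 1.08 and histones 4.01. Signs turned for fibroblast (-0.0243), glycolysis (-0.0434), calcium handling (0.0269), elongation factors (0.0310), giant sarcomere proteins (0.0924), initiation factors (0.13), immediate early genes (0.14), satellite cell (0.16) and iron genes (0.19), and for Rplp2 (0.0352), Bcl6 (0.0877), Ppp1r15b (0.0926) and Ckm (0.13), none of them called. Without genes with a named pseudogene, polyamine genes had -0.77 and ribosomal proteins -0.80.

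With 1 animal left out, medians ranged over -1.55 to -1.34 for ribosomal proteins, -1.87 to -1.48 for polyamine genes, -3.68 to -3.02 for long noncoding RNAs and 2.95 to 3.69 for histones. They crossed 0 for glycolysis (-0.0737 to 0.0868), chaperones (-0.0470 to 0.18), immediate early genes (-0.23 to 0.0539), fibroblast (-0.11 to 0.30), tendon (-0.31 to 0.0632) and myogenic genes (-0.0349 to 0.15), and so did Bcl6 (-0.31 to 0.0792) and Ckm (-0.17 to 0.0165). The cause of these moves was not tested. Depth limits genes with few counts in 1 library type, whose fitted ratios depend on the prior count.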
